A study of Mus musculus with 48 samples.

Results

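Heat shock proteins and chaperonins were followed after stroke in 4 cell types of the mouse brain: microglia (MG), astrocytes (AC), endothelial cells (EC) and pericytes (PC). The 10 genes were chosen by name, as the rows of the deposited expression table that carry the symbols *Hspa1a*, *Hspa1b*, *Hspa8*, *Hsp90aa1*, *Hsph1*, *Dnajb1*, *Bag3*, *Hspd1*, *Hspe1* and *Tcp1*, out of 24973 genes in the table. All 10 were found, and all 10 passed the filter on low values in each of the 4 cell types. The rule itself used no measured value, but the genes were chosen with earlier results of these data known.

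Chaperones are proteins that bind other proteins while these fold, and many of them were discovered because heat raises their production. The HSP70 proteins (*Hspa1a*, *Hspa1b* and *Hspa8*) hold unfolded stretches in cycles of ATP hydrolysis. HSP40 proteins such as the product of *Dnajb1* deliver the client and trigger hydrolysis, whereas HSP110 (*Hsph1*) and *Bag3* exchange the nucleotide. *Hsp90aa1* encodes the inducible cytosolic HSP90, which acts on nearly folded clients such as kinases and receptors. Chaperonins are ring-shaped chambers. *Hspd1* (HSP60) and its lid *Hspe1* (HSP10) form the mitochondrial one, and *Tcp1* encodes a subunit of the cytosolic ring CCT, which folds actin and tubulin. When unfolded proteins accumulate, heat shock factor 1 binds inverted repeats of the bases GAA and TTC near its target genes, and the inducible HSP70 genes are the classical targets in ischemic brain.

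The study used male adult wild-type C57BL/6 mice aged 12–15 weeks, in which the right middle cerebral artery was closed with a filament for 1 h and reperfused for 23 h. The ipsilateral hemisphere was ischemic, and the contralateral hemisphere of the same animals was the control, so no sham-operated animals entered these comparisons, and mice that died or had a low neurological score were left out. Each of the 8 groups (4 cell types in 2 hemispheres) held 6 libraries. Each library came from pooled cerebra of 3–4 mice, so that the replicates were separate pools. Hemispheres with the same replicate number were taken to come from the same mice, although the paper does not state how the numbers match. Cells were sorted by flow cytometry as CD45low/CD11b+ microglia, ACSA2-high astrocytes, VECAD+ endothelial cells and NG2/PDGFRβ double-positive pericytes. All tissue was first incubated with papain at body temperature, and the vessel fragments, the source of EC and PC, were then homogenized and digested again with collagenase and with collagenase/dispase. A difference in level between EC or PC and AC or MG therefore cannot be told apart from a difference in this handling. How each cell type responded to the handling was not tested. Both hemispheres of a cell type were handled alike.

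The values were normalized counts, summing to between 10549900 and 16942165 per library. From the steps between low values, libraries were estimated to hold 4900000 to 17100000 reads on genes, ipsilateral MG replicate 3 the fewest. A gene without reads could have had up to 7.09 normalized counts (3 reads) in that library, considering counting error alone. For the 12 ipsilateral libraries of PC and MG, sample titles and column names gave opposite cell types. The column names were used, and with them 16 of 16 markers of the 4 cell types were higher in each library of their own cell type than in any other library. RNA of other cells was also present. The summed level of 4 microglial markers in ipsilateral EC was 2.73% to 23.1% of that in ipsilateral MG of the same number in replicates 1 to 4 and 0.169% to 0.235% in replicates 5 and 6. By the same measure, ipsilateral PC held 4.28% to 31.1% and 0.164% to 0.206%, against 0.259% to 4.91% and 0.109% to 0.257% in contralateral PC, and ipsilateral AC held 1.8% to 11.3% and 0.225% to 0.358%. The 5 oligodendrocyte markers were summed to 31766 to 291292 (median 168443) in contralateral and 61083 to 359179 (median 151483) in ipsilateral AC. Their medians were above those of the 4 astrocyte markers, at 57129 to 114614 (median 85602) and 41095 to 121715 (median 87373).

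DNA near the start of some members is shown because it holds the letters bound by heat shock factor 1, and because near-identical copies limit how the genes were counted. RefSeq start-site windows (GRCm38.p6, 250 bases before to 50 after the start) were matched for 8 of 10 members, all but *Hspa8* and *Hsp90aa1*. They were searched for 3 alternating repeats, GAANNTTCNNGAA or its reverse complement TTCNNGAANNTTC, the letters of a heat shock element, which covers both strands. Of 32851 windows of this length, 0.603% held a match, and 3 members did. *Hspd1* and *Hspe1* lie head to head on chromosome 1 with starts 216 bases apart, and their windows share a run in which 2 matches overlap. The run lies 72 bases before this start of *Hspe1* and 127 bases before this start of *Hspd1*. It also lies inside an alternative first exon of *Hspd1*. *Hsph1* held 1 match downstream of its start. The sites are given 5′ to 3′ on the strand named, with the matching letters in capitals.
Hspd1/Hspe1, chr1:55088053-55088082, + strand: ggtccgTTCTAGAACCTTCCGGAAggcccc
Hsph1, chr5:149636280-149636308, - strand: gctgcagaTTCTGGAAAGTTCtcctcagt

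*Hspa1a* and *Hspa1b* are neighbouring genes on the minus strand of chromosome 17 and held no such match within their windows. Both held 1 match to the shorter GAANNTTC, found in 7.86% of all windows (capitals). The 120 bases before each start are shown to compare the copies: 1 of the 120 bases differed, and 3 of the 250 bases before the start did.
Hspa1a, chr17:34972157-34972276, - strand: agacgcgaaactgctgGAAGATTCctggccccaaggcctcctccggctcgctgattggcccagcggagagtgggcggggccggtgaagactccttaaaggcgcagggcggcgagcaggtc
Hspa1b, chr17:34959239-34959358, - strand: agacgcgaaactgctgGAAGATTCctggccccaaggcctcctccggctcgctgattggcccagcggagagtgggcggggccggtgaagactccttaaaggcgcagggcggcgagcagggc

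The likeness extends into the transcripts. Of all 75-base windows, the length of the reads, of the longest *Hspa1a* transcript in GENCODE, 61.7% were also present in another gene, most of them in *Hspa1b*, and of those of *Hspa1b* 55.8% were. For *Hspa8* this share was 68.6%, for *Hsp90aa1* 53.1%, for *Hspd1* 33.7%, for *Hspe1* 29.1% and for *Tcp1* 21.1%, the last wholly with the overlapping gene *Acat3*, whereas *Hsph1*, *Dnajb1* and *Bag3* shared 0. The authors left out reads that aligned to several places or overlapped several genes, and the protocol is not stated to keep the strand. The values of the HSP70 pair and of *Hsp90aa1* thus rest on the remaining stretches, and how reads were split between near-identical copies is uncertain. In GENCODE, exons overlapped those of other genes over 19% of the bases of *Hspa1a*, 16.9% of *Tcp1*, 7.6% of *Hspe1*, 6.09% of *Hspa8* and 4.24% of *Hspd1*. For *Hspd1* and *Hspe1* the overlap was with each other. The coordinates deposited with the values do not overlap, since *Hspd1* ends at 55088024 and *Hspe1* starts at 55088132.

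*Tcp1* and *Hspd1* rose after stroke in MG, and *Tcp1* also in EC. In MG, *Tcp1* (ENSMUSG00000068039, chr17:12916329-12925067) had 1576, 1828 and 2500 normalized counts (lowest, median and highest of 6 libraries) in the contralateral hemisphere and 3021, 3422 and 3965 in the ipsilateral one. Each ipsilateral library lay above each contralateral one, and the level rose by 0.85 ± 0.15 (log2 fold change ± SE, adjusted p = 0.00255). *Hspd1* (ENSMUSG00000025980, chr1:55077835-55088024) in MG had 1145, 1440.5 and 1694 contralaterally and 2130, 2523 and 2639 ipsilaterally. Here, too, the hemispheres did not overlap, and the rise was 0.79 ± 0.14 (adjusted p = 0.00274), in 6 of 6 pairs of the same replicate number. For such agreement of pairs no share of all genes is given, here or below.

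In EC, *Tcp1* had 1378, 1573 and 1889 normalized counts contralaterally and 2636, 3004 and 4032 ipsilaterally. All 6 ipsilateral libraries were again above all 6 contralateral ones, and *Tcp1* rose by 0.98 ± 0.17 (adjusted p = 0.021). This call is less firm than those in MG. With the replicate number as a block the adjusted p was 0.0634, and leaving out replicate 1, 3, 4, 5 or 6 gave 0.0656, 0.13, 0.0576, 0.102 and 0.14 with changes of 0.86 to 1.06. The ipsilateral EC of replicates 5 and 6, with the lowest microglial marker RNA, had 2809 and 3200 normalized counts of *Tcp1*. The summed level of 6 neutrophil markers was 6 to 1724 in contralateral and 93 to 10388 in ipsilateral EC, with 1 of the 6 at 0 in all contralateral libraries, and its part in the result was not tested.

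*Tcp1* did not pass the test in PC or AC. In PC, where its contralateral level was the highest of the 4 cell types, it had 2879, 3758 and 4644 normalized counts contralaterally and 2533, 3799.5 and 4084 ipsilaterally, a change of -0.13 ± 0.17 (95% interval -0.50 to 0.25, adjusted p = 0.777). In AC the change was 0.29 ± 0.17 (95% interval -0.07 to 0.65, adjusted p = 0.642), with the ipsilateral library higher in 6 of 6 pairs. By limma contrasts in a joint fit of all 48 libraries, the stroke change of *Tcp1* was greater in EC than in PC by 1.10 ± 0.21 (adjusted p = 0.0246). It was smaller in PC than in MG by a difference of -0.98 ± 0.21 (adjusted p = 0.0163). That fit took cell types sorted from the same mice as independent, and 2 of the 60 differences also passed with the replicate block. Both differences lost the threshold without replicate 3, 4 or 5 (adjusted p 0.0623 to 0.32), and the EC difference also without replicate 1, 2 or 6. In ipsilateral PC, *Tcp1* had 3796 to 4084 normalized counts in replicates 1 to 4 and 2533 to 2657 in replicates 5 and 6, which held the least microglial marker RNA, and contralaterally it had 3684 to 4644 and 2879 to 3094. The part of this RNA in the differences was not tested. These were the differences that passed among 60 (10 genes, 6 pairs of cell types), whereas among all genes 0.0267% passed for EC against PC, 0.0600% for EC against AC, 0.273% for EC against MG, 0.00667% for PC against AC, 0.727% for PC against MG and 0.293% for AC against MG.

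**Figure D1:**
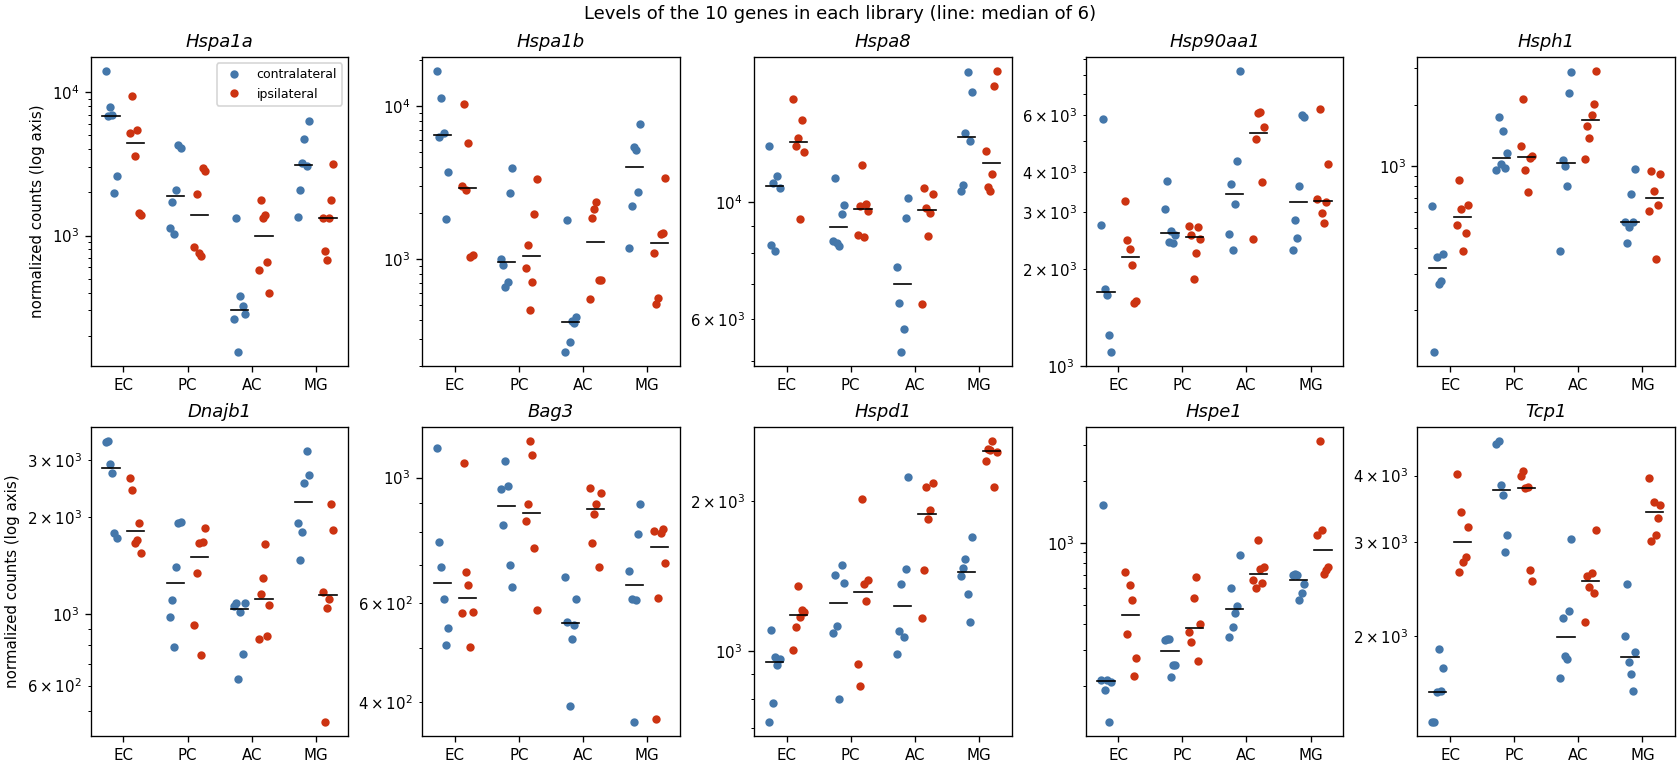
Normalized counts (log axis) of the 10 genes in each of 48 libraries, with contralateral libraries in blue and ipsilateral libraries in red and a line at the median of 6. *Tcp1* in EC and MG and *Hspd1* in MG showed no overlap between hemispheres, whereas *Hspa1a* and *Hspa1b* spread widely within groups, from 1983 to 14095 for *Hspa1a* in contralateral EC.

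*Hspe1*, the lid of the mitochondrial chaperonin, did not pass the test in any single cell type. In MG it had 527, 662 and 704 normalized counts contralaterally and 704, 926 and 3150 ipsilaterally, a change of 0.76 ± 0.31 (adjusted p = 0.118) with the ipsilateral library higher in 6 of 6 pairs. The highest value came from ipsilateral MG replicate 2, without which pair the change was 0.49 (adjusted p = 0.0784). In EC, contralateral replicate 2 had 1531 normalized counts and the other 5 libraries 133 to 215, against 224 to 724 ipsilaterally. The EC change was 0.63 ± 0.52 (adjusted p = 0.69) and, without that 1 library, 1.13 (adjusted p = 0.0953). In PC and AC the changes were 0.51 ± 0.25 (adjusted p = 0.347) and 0.54 ± 0.22 (adjusted p = 0.499). The ratio of *Hspe1* to *Hspd1* had medians between 0.231 in contralateral EC and 0.467 in contralateral MG. *Hspd1* changed by 0.37 ± 0.17 in EC, 0.07 ± 0.22 in PC and 0.41 ± 0.22 in AC (adjusted p = 0.411, 0.902 and 0.621).

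Averaged over the 4 cell types in the joint fit, the 3 chaperonin genes passed. The cell types were sorted from the same tissue, so libraries of the same mice entered this fit as if independent. With the replicate number as a block, 3 of 10 members passed as well. *Tcp1* rose by 0.50 ± 0.08 (adjusted p = 7.7e-06), *Hspd1* by 0.41 ± 0.09 (adjusted p = 0.00167) and *Hspe1* by 0.61 ± 0.18 (adjusted p = 0.0213). The last lost the threshold without replicate 1, 3 or 4, with adjusted p of 0.0838, 0.174 and 0.123. That is 3 of 10 members, all higher, whereas 11.9% of all genes tested passed this contrast and 7.05% passed it as higher in the ipsilateral hemisphere.

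Other subunits of CCT rose in MG as well. CCT is a double ring of 8 kinds of subunit, and all of them are needed for the chamber. Of the 8 other genes listed (*Cct2* to *Cct8* with *Cct6a* and *Cct6b*), 7 were tested, and all 7 passed the test as higher in MG, 5 of them by at least 1.5-fold. The median change was 0.74 and the range 0.47 to 0.90, where the median of all genes in MG was -0.18. *Cct6a* rose by 0.90 ± 0.12 (adjusted p = 0.000585), *Cct3* by 0.79 ± 0.14 (adjusted p = 0.00279) and *Cct5* by 0.73 ± 0.13 (adjusted p = 0.0031). Among all genes, 4.62% passed as higher in MG. With the replicate block 5 of 7 passed (background 4.83%), since *Cct4* (0.50) and *Cct7* (0.47) had adjusted p of 0.0609 and 0.0519. With replicates 1 to 4 alone 2 were regulated, with no share of all genes counted for that fit.

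In EC, the 7 subunits were also all above 0, with a median of 0.61 and a range of 0.35 to 0.73, against a median of -0.03 for all genes. None passed in the fit of EC alone. In the joint fit of 48 libraries 4 were regulated, with no share of all genes counted for that fit. The median was 0.42 in AC and 0.22 in PC (0.10 without replicate 4), where *Cct7* was at -0.05 and none passed either. The change of *Tcp1* in PC, -0.13, lay below the range of -0.05 to 0.30 of the other 7.

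**Figure D2:**
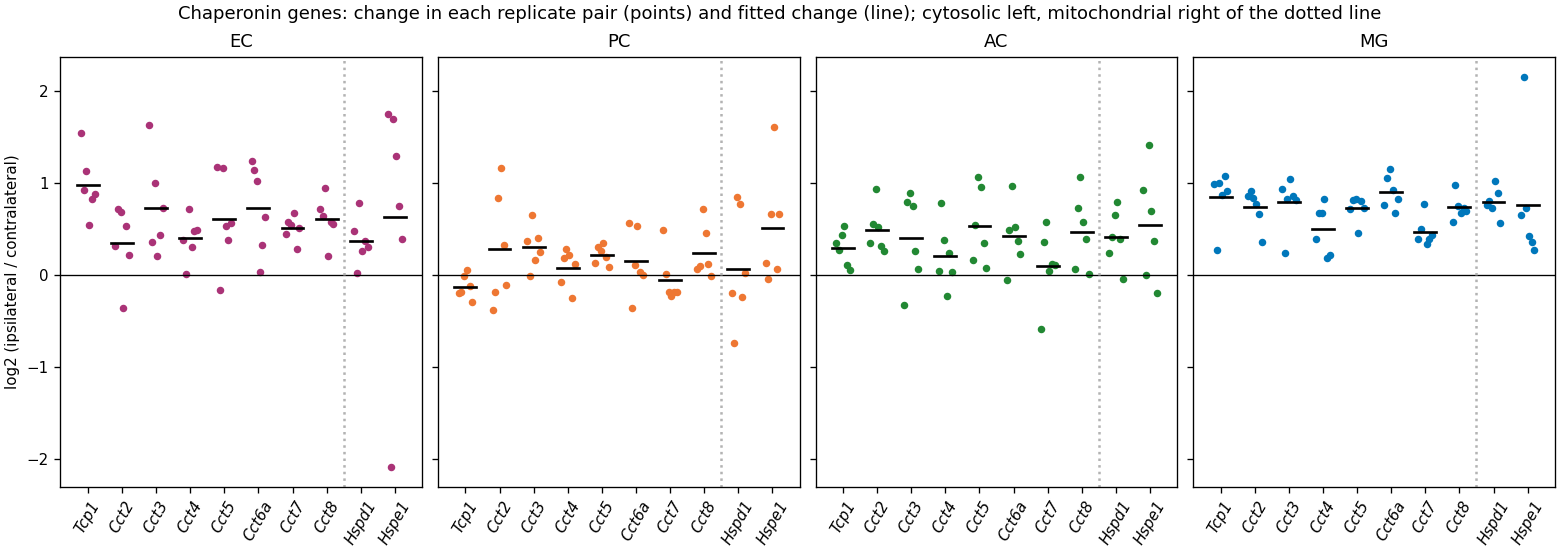
Log2 ratio of ipsilateral to contralateral normalized counts for *Tcp1*, 7 other CCT subunits, *Hspd1* and *Hspe1*, with 1 point for each of 6 replicate pairs and a line at the fitted change, in 4 panels for EC, PC, AC and MG. In MG the points of all 10 genes lay above 0, whereas in PC the lines lay between -0.13 and 0.51.

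Prefoldin, which hands actin and tubulin chains to CCT, did not pass in any cell type, with medians of 6 subunits of -0.17 in EC, -0.13 in PC, 0.15 in AC and 0.45 in MG. Replicate 2 decided the first and the last, since without it the medians were 0.21 in EC and 0.20 in MG. Among 12 actin and tubulin genes, the clients of CCT, 5 passed as higher in MG, with the smallest p for *Tubb6* (1.41 ± 0.23, adjusted p = 0.00174), *Tubb4b* (1.00 ± 0.16, adjusted p = 0.0019) and *Tubb5* (0.90 ± 0.15, adjusted p = 0.00252), where 4.62% of all genes passed as higher. *Tubb6* was the client gene that passed in the other cell types too, by 3.05 ± 0.26 in EC, 1.58 ± 0.26 in PC and 2.90 ± 0.36 in AC (adjusted p = 0.000102, 0.0158 and 0.00251). It was 1 of 12 in each, where 0.362%, 0.471% and 0.360% of all genes passed as higher in EC, PC and AC. In PC, *Tuba1a* (0.69) also passed with the replicate block (adjusted p = 0.0344 against 0.0625 without it), with 0.706% of all genes higher under the block.

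In mitochondria, HSP60 works beside the HSP70 of the matrix, *Hspa9*, which pulls proteins in, and its exchange factor *Grpel1*. Both passed in MG, by 0.70 ± 0.16 and 0.75 ± 0.22 (adjusted p = 0.0116 and 0.0387), and they were 2 of the 8 mitochondrial chaperones and proteases listed, where 4.62% of all genes passed as higher. None of the 8 passed in EC, PC or AC.

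The inducible HSP70 genes went the other way in MG. *Hspa1a* (ENSMUSG00000091971, chr17:34969190-34972156) had 1358, 3120.5 and 6326 normalized counts in contralateral MG and 674, 1328 and 3177 in ipsilateral MG. The hemispheres overlapped, yet the ipsilateral library was lower in 6 of 6 pairs, by 0.03 to 2.24 on the log2 scale. The change was -1.22 ± 0.40 (adjusted p = 0.0591), and with the replicate block, which compares hemispheres of the same replicate number, it passed (adjusted p = 0.0182). *Hspa1b* (ENSMUSG00000090877, chr17:34956436-34959238) had 1183, 3981 and 7653 contralaterally and 508, 1276 and 3415 ipsilaterally, a change of -1.57 ± 0.49 (adjusted p = 0.0519, with the block 0.0194). *Dnajb1*, the HSP40 partner of these proteins (ENSMUSG00000005483, chr8:83608193-83612653), had 1467, 2226 and 3202 contralaterally and 462, 1144 and 2184 ipsilaterally, a change of -0.91 ± 0.32 (adjusted p = 0.0779, with the block 0.0143). For each of the 3 genes the ipsilateral library was the lower one in 6 of 6 pairs, a count with no share of all genes beside it.

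Of the 10 members, 2 were thus regulated in MG, *Tcp1* and *Hspd1*, while 10.6% of all genes tested were. With the replicate block 5 were, 2 of them higher and 3 lower, while 11.0% of all genes were. In EC 1 of 10 was regulated (0.491% of all genes) and 0 with the block (0.551%). In PC and AC 0 of 10 were, where 1.02% and 0.341% of all genes were regulated. At an unadjusted p under 0.05 the counts were 3 in EC, 0 in PC, 4 in AC and 6 in MG, where this held for 11.9%, 15.4%, 9.28% and 28% of all genes. The hemispheres did not overlap for 1 member in EC, 0 in PC, 1 in AC and 2 in MG, where this held for 2.06%, 1.93%, 0.898% and 8.56% of all genes.

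In MG, markers moved as well. The 4 microglial markers were summed to 180699 to 227678 in contralateral and 91419 to 163197 in ipsilateral libraries, and the 4 astrocyte markers to 2851 to 3616 and 958 to 1432. The 6 neutrophil markers were at 6423 to 8009 (median 7166) and 4378 to 18776 (median 5060), the highest in ipsilateral replicate 2. The 3 monocyte and T cell markers in the table were at 51 to 148 and 127 to 521. None of these markers was at 0 in all libraries of MG. In bulk samples fewer cells of a type and less RNA per cell cannot be told apart, and the part of these shifts in the changes of the members was not tested.

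**Figure D3:**
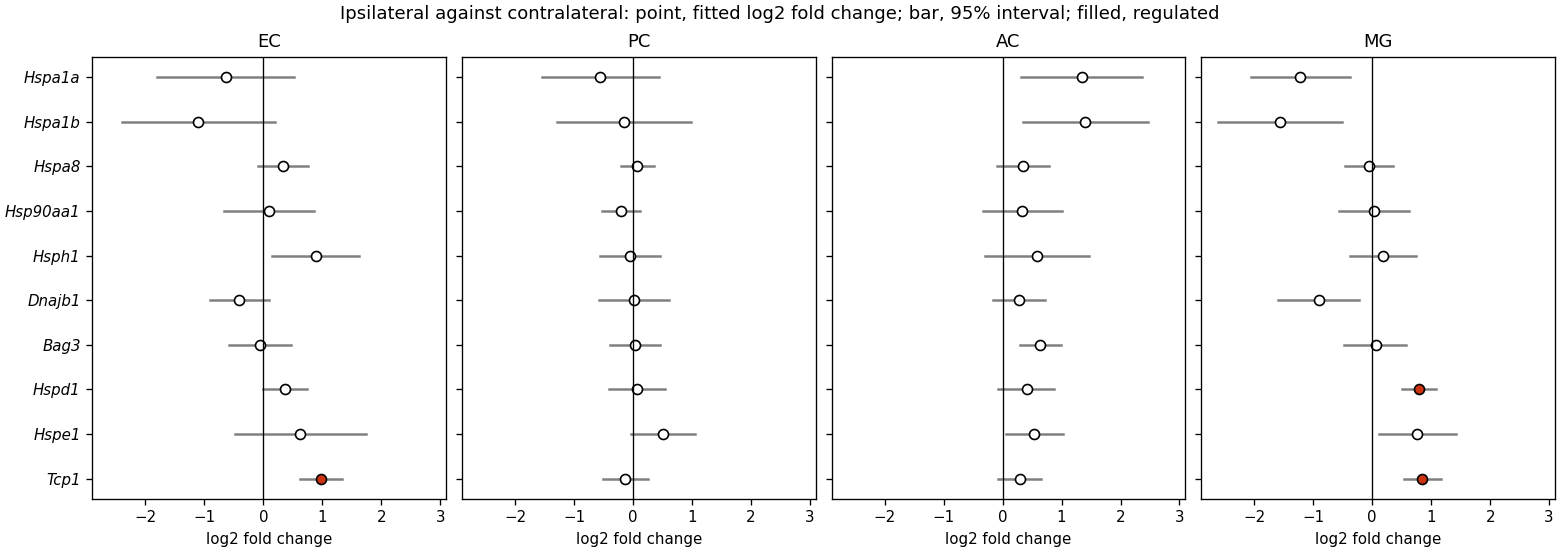
Fitted log2 fold change of the 10 genes, ipsilateral against contralateral, as points with 95% intervals as bars, in 4 panels for EC, PC, AC and MG, with filled points for regulated genes. The filled points are *Tcp1* in EC and MG and *Hspd1* in MG, and in AC all 10 points lie above 0.

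In AC, *Hspa1a* and *Hspa1b* were higher on the ipsilateral side in 6 of 6 pairs each but did not pass the test. *Hspa1a* had 153, 302 and 1323 normalized counts contralaterally and 395, 986 and 1767 ipsilaterally. The highest contralateral value was that of replicate 2, and the other 5 contralateral libraries, at 153 to 376, lay below the lowest ipsilateral one. The change was 1.34 ± 0.48 (95% interval 0.31 to 2.37, adjusted p = 0.418, with the block 0.0625). *Hspa1b* had 245, 386 and 1804 contralaterally and 546, 1288 and 2350 ipsilaterally, again with replicate 2 as the highest contralateral library. Its change was 1.40 ± 0.49 (95% interval 0.35 to 2.46, adjusted p = 0.4, with the block 0.067). Between AC and MG the stroke changes differed by 2.56 ± 0.74 for *Hspa1a* and 2.97 ± 0.84 for *Hspa1b*, and these differences did not pass over all genes (adjusted p = 0.158 and 0.144).

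*Bag3*, the HSP70 cochaperone that routes clients to autophagy (ENSMUSG00000030847, chr7:128523616-128546981), was the member whose hemispheres did not overlap in AC. It had 395, 552 and 668 normalized counts contralaterally and 695, 879.5 and 958 ipsilaterally, a change of 0.64 ± 0.16 (adjusted p = 0.154, with the block 0.0562). All 10 members had a change above 0 in AC, with a median of 0.47 and a range of 0.28 to 1.40, where the median of all genes was -0.06, and none of the 10 passed the test with or without the block. Markers of other cells moved in AC as well. The 6 neutrophil markers were summed to 36 to 1476 (median 209) contralaterally and 246 to 5449 (median 1164) ipsilaterally, and the 4 microglial markers to 611 to 13973 (median 1614) and 368 to 10617 (median 3064), with none of these markers at 0 in all libraries of a hemisphere. In replicate 3 the neutrophil sum was 131 contralaterally and 5449 ipsilaterally, the microglial sum 1310 and 10115, and of the 6 pairs this one had the highest change of *Hspa1a*, which was 0.99 without it. The part of these cells, and of the oligodendrocyte RNA given above, in the changes was not tested. *Bag3* changed by -0.06 ± 0.25 in EC, 0.03 ± 0.20 in PC and 0.06 ± 0.25 in MG. The small heat shock proteins, which bind unfolded proteins without ATP, had a median of 0.82 over the 4 of 7 that were tested in AC. With the block, *Hspb1* (2.13 ± 0.48) and *Hspb6* (1.23 ± 0.32) passed there (adjusted p = 0.00161 and 0.0151, against 0.11 and 0.186 without it), where 1.35% of all genes passed as higher.

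In EC and PC the inducible HSP70 genes were lower ipsilaterally in most pairs but did not pass the test. *Hspa1a* changed by -0.64 ± 0.54 in EC and -0.56 ± 0.46 in PC (adjusted p = 0.703 and 0.608), with 5 of 6 pairs lower in each. *Hspa1b* changed by -1.10 ± 0.61 in EC and -0.15 ± 0.53 in PC (adjusted p = 0.505 and 0.916), and *Dnajb1* by -0.41 ± 0.23 in EC, 0.02 ± 0.28 in PC and 0.28 ± 0.21 in AC (adjusted p = 0.518, 0.984 and 0.741). *Hsph1*, the HSP110 exchange factor (ENSMUSG00000029657, chr5:149614287-149636338), had 124, 319.5 and 643 normalized counts in contralateral and 386, 568 and 860 in ipsilateral EC. Its change there was 0.89 ± 0.35 (adjusted p = 0.318), and it was -0.05 ± 0.24 in PC, 0.58 ± 0.41 in AC and 0.18 ± 0.26 in MG.

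*Hspa8* and *Hsp90aa1* passed in no cell type. *Hspa8* (ENSMUSG00000015656, chr9:40800984-40805200), the HSP70 of unstressed cells, had between 5200 and 17677 normalized counts in the 48 libraries. Its changes were 0.33 ± 0.20 in EC, 0.07 ± 0.13 in PC, 0.34 ± 0.20 in AC and -0.05 ± 0.19 in MG (adjusted p = 0.545, 0.837, 0.661 and 0.893). In MG its 95% interval was -0.46 to 0.36. *Hsp90aa1* (ENSMUSG00000021270, chr12:110690605-110696395) changed by 0.10 ± 0.36, -0.20 ± 0.15, 0.33 ± 0.31 and 0.03 ± 0.28 in EC, PC, AC and MG (adjusted p = 0.956, 0.546, 0.807 and 0.957). Its constitutive relative *Hsp90ab1* changed by 0.09, 0.36, 0.36 and 0.54, with adjusted p of 0.0589 in MG, where it passed with rescaling (0.61).

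Other parts of the network were listed as well. Of 18 cochaperones of HSP70 and HSP90, 2 passed, both higher in MG, where 4.62% of all genes did: *Cacybp*, which binds the HSP90 cochaperone SGT1 (1.09 ± 0.22, adjusted p = 0.00666), and *Hspbp1*, a nucleotide exchange factor of HSP70 (0.79 ± 0.21, adjusted p = 0.0248). The median of the 18 in MG was 0.25. With rescaling of the 12 libraries 4 passed, also *Bag1* (0.65, adjusted p = 0.0353) and *Ptges3* (0.67, adjusted p = 0.0385), with no share of all genes counted for that setting. Of 11 other HSP40 genes, 8 other HSP70 and HSP110 genes (7 tested in MG) and 4 heat shock factors (3 tested), none passed in any cell type without the block. *Dnajc7* (-0.66 in MG) passed with the block (adjusted p = 0.0353 against 0.0539), and *Hsf1*, the factor that drives the heat shock response, changed by -0.86 ± 0.37 in MG (adjusted p = 0.147).

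Immediate early genes, transcribed within minutes of many stimuli, including tissue dissociation, were listed beside the inducible members. Of 13, 5 passed as lower in MG, with *Jun* at -1.70 ± 0.34 (adjusted p = 0.0057), *Egr1* at -1.29 ± 0.31 (adjusted p = 0.0163) and *Fos* at -0.86 ± 0.23 (adjusted p = 0.0299) having the smallest p, where 6.62% of all genes passed as lower. With the block 7 passed, where 6.74% of all genes did. The median of the 13 was -0.90, and 1 of them lay above 0. In AC 12 of 13 lay above 0 with a median of 0.61, and none passed. Without replicate 3 this median was 0.20. In PC none passed, and with the block *Jun* (-0.67) and *Atf3* (-0.94) did (adjusted p = 0.0416 and 0.0344), where 0.986% of all genes passed as lower. In EC the median was -0.09. The part of the handling of the tissue in these values was not tested.

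**Figure D4:**
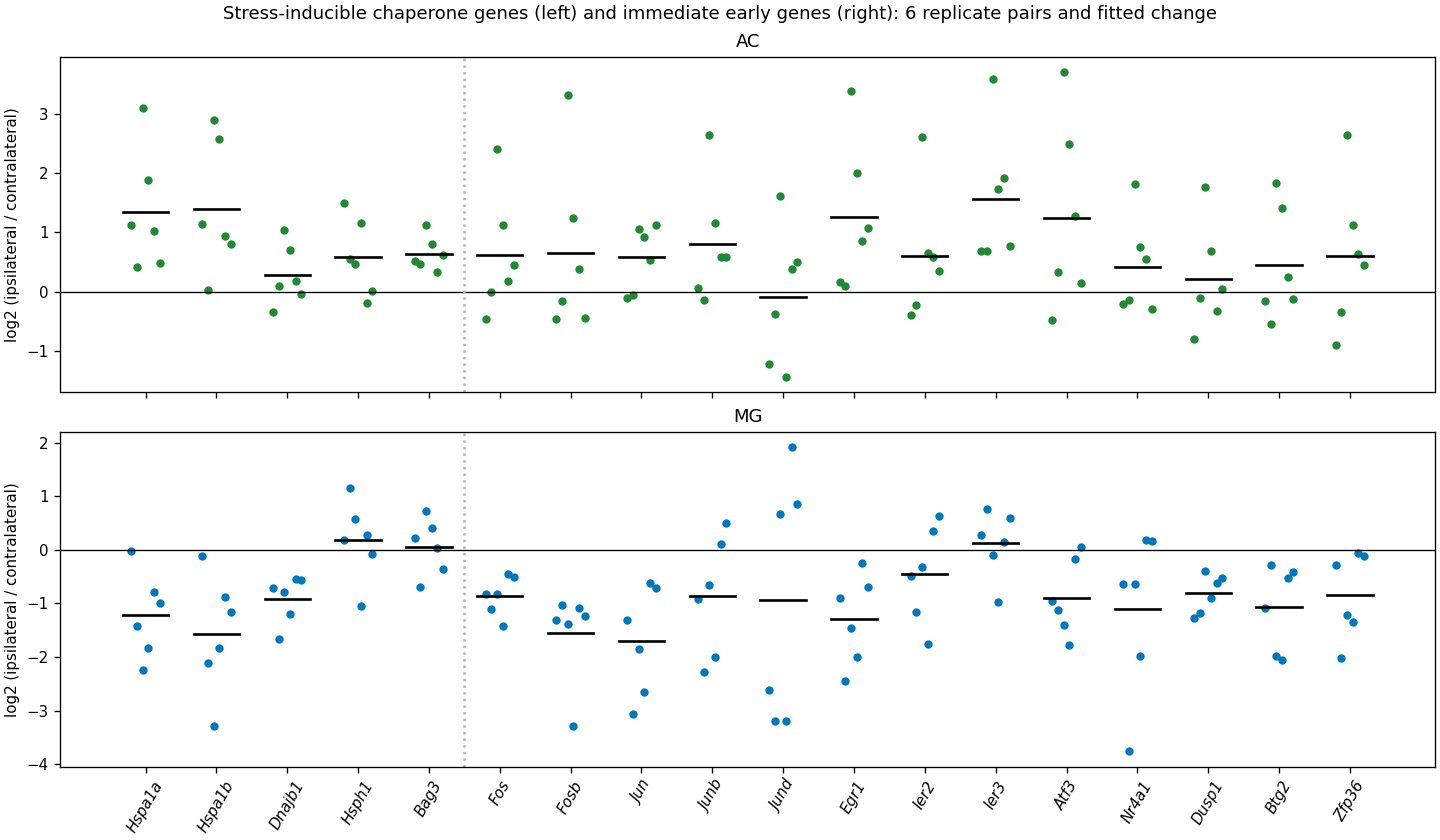
Log2 ratio of ipsilateral to contralateral normalized counts of *Hspa1a*, *Hspa1b*, *Dnajb1*, *Hsph1* and *Bag3* (left of the dotted line) and 13 immediate early genes (right), in AC (top) and MG (bottom), with 1 point for each of 6 pairs and a line at the fitted change. In MG the points of *Hspa1a*, *Hspa1b* and *Dnajb1* all lie below 0, and in AC those of *Hspa1a*, *Hspa1b* and *Bag3* all lie above 0.

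The control hemisphere gave each member's level in the 4 cell types. Apart from the ratio of *Hspe1* to *Hspd1* given above, levels were not compared between members, since the stretch on which reads could be counted differed between them. The AC libraries also held the oligodendrocyte RNA given above, and its part in the levels was not tested. *Hspa1a* had means of 6734 ± 4366 normalized counts (SD, n = 6) in EC, 3458 ± 1810.2 in MG, 2393 ± 1449 in PC and 453 ± 433 in AC. In that order the differences between EC and MG, and between MG and PC, did not pass the test (adjusted p = 0.206 and 0.381). PC was above AC by 2.55 on the log2 scale (adjusted p = 7.6e-05). *Hspa1b* followed the same order, with EC above AC by 3.79 (adjusted p = 6.1e-07), and of its neighbours the difference between EC and MG did not pass (adjusted p = 0.262). *Dnajb1* did too, with EC above AC by 1.48 (adjusted p = 1.4e-05), and there MG and PC were the neighbours that differed (0.77, adjusted p = 0.0178).

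The place of EC and PC in that order depended on the replicates. *Hspa1a* in contralateral EC had 6802 to 14095 normalized counts in replicates 1 to 4 and 1983 to 2604 in replicates 5 and 6, while contralateral PC had 1032 to 2088 and 4098 to 4293. EC were thus above PC in replicates 1 to 4 and below PC in replicates 5 and 6. *Hspa1b* showed this as well, with 6271 to 17053 and 1830 to 3692 in contralateral EC and 657 to 996 and 2699 to 3934 in PC. So did *Dnajb1*, with 2738 to 3430 and 1715 to 1786 in contralateral EC and 790 to 1397 and 1912 to 1931 in PC. For *Hspa1a* the same split held on the ipsilateral side, with 3591 to 9489 and 1382 to 1436 in EC and 715 to 1956 and 2824 to 2944 in PC. The labels give no batch for these replicates, so what they share was not tested.

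*Tcp1* and *Hsph1* had another order. *Tcp1* had means of 3787 ± 734 normalized counts (SD, n = 6) in PC, 2125 ± 502 in AC, 1905 ± 326 in MG and 1589 ± 201 in EC. PC were above AC by 0.84 (adjusted p = 9.9e-06), whereas the differences between AC and MG, and between MG and EC, did not pass (adjusted p = 0.458 and 0.184). For *Hsph1* the average difference between PC and AC was 0.07 and did not pass (adjusted p = 0.887). It was lower in MG than in AC by 0.94 (adjusted p = 0.0191) and lower again in EC by 0.96 (adjusted p = 0.0205). The order of PC and AC depended on the replicates. In replicates 1 to 4, *Hsph1* had 960 to 1746 normalized counts in contralateral PC and 385 to 1072 in contralateral AC. In replicates 5 and 6 it had 981 to 1156 in PC and 2285 to 2866 in AC. *Hspd1* and *Hspe1* were both highest in MG, followed by AC, PC and EC. No difference between neighbours in that order passed the test, but MG were above EC by 0.65 (adjusted p = 0.00356) and 1.24 (adjusted p = 0.00513).

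*Bag3* was highest in PC and lowest in AC, with a difference of 0.64 (adjusted p = 0.0122). *Hsp90aa1* was highest in AC and lowest in EC (0.88, adjusted p = 0.014), and *Hspa8* was highest in MG and lowest in AC (0.89, adjusted p = 1.6e-05). For these 3 genes as well, no difference between neighbours in the order passed the test. Of 60 contrasts of contralateral levels (10 genes, 6 pairs of cell types), 33 passed. Among all genes 35.4% passed for EC and PC, 50.1% for EC and AC, 42.6% for EC and MG, 46.3% for PC and AC, 48.9% for PC and MG and 51.7% for AC and MG.

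Within groups, *Hspa1a*, *Hspa1b* and *Dnajb1* varied together. For each gene, deviations of log2 values from the 8 group means were correlated over the 48 libraries, which share the library and its depth between genes, so that the coefficients are a description. *Hspa1a* and *Hspa1b*, which share much of their sequence, were at r = 0.94, and *Dnajb1* was at 0.69 with *Hspa1a* and 0.62 with *Hspa1b*. The parts of the shared sequence and of the split between replicates given above in these coefficients were not tested. The other coefficient above 0.6 among the 45 pairs of members was 0.63 between *Hsp90aa1* and *Hspe1*, and the median was 0.19. Both genes were highest of their group in contralateral EC replicate 2 (5848 and 1531 normalized counts) and in ipsilateral MG replicate 2 (6279 and 3150). These 2 libraries also had the highest totals (15633875 and 16942165). Their part in the coefficients of *Hspe1*, here and below, was not tested. *Tcp1* lay at -0.31 with *Hspa1a*, the lowest of the 45. *Hspd1* and *Hspe1*, which share their start region, were at 0.34.

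**Figure D5:**
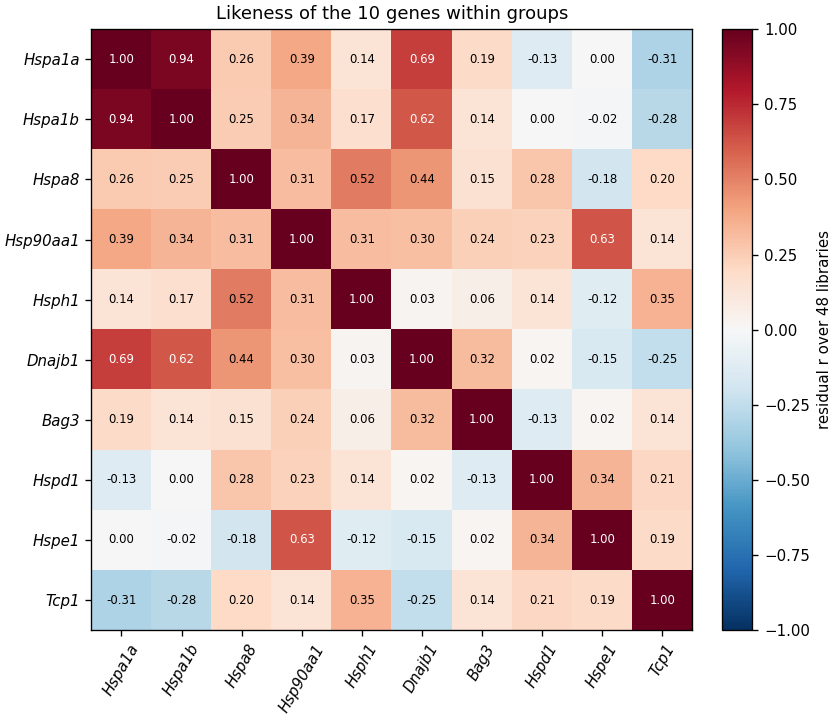
Pearson r between the 10 genes, from deviations of log2 normalized counts from group means over 48 libraries, with the value written in each cell and colour from -1 (blue) to 1 (red). *Hspa1a*, *Hspa1b* and *Dnajb1* form a set with r of 0.62 to 0.94, and *Tcp1* is negative with all 3.

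The genes closest to each member were sought among 15003. *Ppp1r15a*, induced by stress to restart translation, was at 0.71 with *Hspa1a*, 0.69 with *Hspa1b* and 0.69 with *Dnajb1*. *Tcp1* was closest to the CCT subunit *Cct3* (0.72), and *Hsp90aa1* to *Hsp90ab1* (0.77) and *Gm12346*, a gene that shares its sequence (0.77). *Hspa8* was closest to chaperones of the endoplasmic reticulum, *Hspa5* (0.67), *Hsp90b1* (0.67) and *Pdia4* (0.65). *Hspd1* was closest to *Cacybp* (0.70), and *Hspe1* to *Fkbp3*, *Mrpl13* and *Manf* (0.88 each). *Hsph1* was closest to *Gcnt2* (0.68) and *Bag3* to *Eln* (0.64). With the 13 immediate early genes, *Hspa1a* had coefficients from 0.06 (*Jund*) to 0.60 (*Atf3*).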

How the data were processed

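RNA of 48 libraries of sorted cells was sequenced by the study. The authors trimmed reads with Trimmomatic 0.38, aligned them with STAR 2.6.1d to mm10 (GRCm38), counted them on genes with featureCounts 1.6.3 and normalized the counts with DESeq2 1.18.1. What the authors deposited is the result rounded to integers, a score and not raw counts, so no count model was used. No column was left unmapped. Groups came from the labels. The annotation columns of the table gave symbols and coordinates, and exon lengths came from GENCODE M21.

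Tests were run with limma 3.58.1 in R 4.3.3 (lmFit, eBayes with a trend) on log2(value + 1), which understates changes of low genes, keeping genes whose mean reached 10, two-sided, with Benjamini-Hochberg adjustment over all genes tested. Each cell type was fitted with its 12 libraries and no block, and differences between cell types, contralateral levels and the average change came from 1 fit of 48 libraries. A gene "passed" at an adjusted p of at most 0.05, and was "regulated" if it also changed by at least 1.5-fold and exceeded 10 in each of the 6 replicates on 1 side. The fit was tested on simulated data. The control hemispheres came from the ischemic mice, and equal replicate numbers were taken as the same pool, which is the source of the pairing. The 4 cell types were sorted from the same tissue as well, and the fit of 48 libraries without the block took them as independent. The mean correlation of deviations was 0.21, 0.21, 0.37 and 0.12 for the same number in EC, PC, AC and MG against -0.04, -0.04, -0.07 and -0.02 for different numbers. The correlation exceeded 0.1 in 3, 4, 5 and 2 of the 6 pairs with the same number. Alternatives were pseudocounts of 0.1 and 10, other filters, the replicate block, rescaling, a joint fit, replicates 1 to 4 alone and each replicate left out.

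All 10 members were named, and of each gene list up to 3 genes per cell type with the smallest p among those passing, and up to 3 most correlated genes per member; genes whose call changed with the block, *Cct4* and *Cct7*, *Hsp90ab1*, *Hsf1*, *Bag1*, *Ptges3*, *Jund* and *Atf3* were added after their values were seen. The members and the lists were chosen with earlier results of these data known. Summaries and plots used matplotlib 3.10.9, pandas 2.3.3, numpy 2.4.6 and scipy 1.17.1 under Python 3.11.15.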

Additional observations from a re-analysis of the deposited data

Results flagged for a closer look

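In 10 of the 80 sets of 6 libraries (10 genes in 8 groups) 1 library stood far from the other 5 by Dixon's criterion, which chance alone meets in a share of about 0.05 of such sets if values are normally distributed. The normalized counts were skewed to the right, and all 10 libraries lay above the others of their group. On the log2 scale of the tests 4 of 80 sets met it: *Hspe1* in contralateral EC and ipsilateral MG, *Hspa1b* in contralateral AC, and *Bag3* in ipsilateral MG, whose lowest library had 374. That scale was tried after seeing the data. Contralateral EC replicate 2 stood out for *Hspe1*, with 1531 normalized counts against 133 to 215, and for *Hsp90aa1*, with 5848 against 1102 to 2737. Contralateral AC replicate 2 stood out for both inducible HSP70 genes, with 1323 of *Hspa1a* against 153 to 376 and 1804 of *Hspa1b* against 245 to 417. *Hspe1* was also high in ipsilateral MG replicate 2 (3150 against 704 to 1155) and in ipsilateral AC replicate 3 (1038 against 602 to 762). *Hspa1b* had 3415 in ipsilateral MG replicate 6 against 508 to 1491, and *Hsp90aa1* 8243 in contralateral AC replicate 6 against 2292 to 4323. *Hsph1* had 2134 in ipsilateral PC replicate 2 against 752 to 1249, and *Bag3* 1060 in ipsilateral EC replicate 2 against 501 to 681.

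The stroke change of *Tcp1* differed between cell types by a test of the difference, by 1.10 between EC and PC and by -0.98 between PC and MG on the log2 scale.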

How the results depend on the processing

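*Tcp1* and *Hspd1* kept their rise in MG under every alternative run. The count of regulated members in MG was 4 with a pseudocount of 10, which added *Hspa1a* and *Hspa1b*, 5 with the replicate block, and 2 to 4 with 1 replicate left out, the highest without replicate 6. In EC it was 0 with the block and with replicates 1 to 4, and 0 to 1 with 1 replicate left out. The 2 differences of the stroke change became 0 with replicates 1 to 4 and 0 to 1 with 1 replicate left out. The average over cell types kept 2 to 3 members and the contralateral levels 25 to 33 contrasts with 1 replicate left out. The causes were not tested, though fits without a replicate hold fewer samples. With the replicate block, the differences stayed at 2 and the average at 3, and 35 contralateral contrasts passed in place of 33. Among the stroke changes of members, the block changed the calls given in the report and no other. The 4 other CCT subunits regulated in EC in the joint fit, and the 2 in MG with replicates 1 to 4, are 0 and 5 in the fits reported. Shares of all genes were counted for the fits reported and the replicate block only, so counts under the other alternatives have no background beside them.

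Signs turned for changes that passed under no setting. With rescaling *Hspa8* was at 0.01 in MG and *Hsph1* at 0.01 in PC, and with replicates 1 to 4 *Hsp90aa1* was at -0.07 in EC. With 1 replicate left out, *Hspa8* ranged from -0.01 to 0.12 in PC and -0.13 to 0.07 in MG (0.02 without replicate 3), *Hsp90aa1* from -0.20 to 0.21 in MG (-0.07 and -0.02 without replicates 1 and 3), *Hsph1* from -0.13 to 0.14 in PC and -0.02 to 0.42 in MG, *Dnajb1* from -0.19 to 0.20 in PC (-0.04 without replicate 2), *Bag3* from -0.17 to 0.12 in EC and -0.08 to 0.21 in MG (-0.01 without replicate 4), and *Hspd1* from -0.08 to 0.24 in PC (-0.06 without replicate 4). Single libraries were also left out, a choice made after seeing the data: without ipsilateral MG replicate 3, the shallowest, *Hspa8* was at 0.01 in MG, and without contralateral EC replicate 2 *Tcp1* kept its call in EC (0.94, adjusted p = 0.0104). Depth limits precision for low genes, and no member was near the floor.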
